A study of Mus musculus with 6 samples.

Results

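RNA of 10 genes that act on the lysines and prolines of collagen, or hold the collagen chains while they fold, was followed in lung fibroblasts (LFBs) with and without Atf4. They are the collagen prolyl hydroxylase genes P4ha1, P4ha2, P4ha3 and P4hb, the lysyl hydroxylase genes Plod1 and Plod2, the chaperone gene Serpinh1, and the lysyl oxidase genes Lox, Loxl1 and Loxl3. They were listed by function. Each was taken from the array's transcript clusters that name no other gene (a cluster is a set of probes summarised as 1 value), with the brightest cluster used where a gene had several. All 10 were measured, out of 30756 genes with a cluster of their own.

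The LFBD/D group came from Atf4D/D mice, in which Atf4 had been deleted, and the LFBwt/wt group from Atf4wt/wt mice, in which it was intact, with 3 arrays each. Per the study's methods, mice of both genotypes carried a tamoxifen-inducible Cre driven from the ubiquitous Rosa26 locus and received tamoxifen, and all fibroblasts were grown with 4-hydroxytamoxifen, so the groups shared the Cre and the drug. The mice were adult males and females, lung tissue of several animals was digested together, and RNA was taken from cells of passage 2. The labels call the replicates biological, but not whether each came from its own pool of mice, and the p-values therefore cover only the variation seen among these 6 arrays. Atf4 itself had log2 values of 7.73, 7.49 and 7.48 in LFBD/D, against 8.67, 8.95 and 8.73 in LFBwt/wt, which is 2.32-fold lower (adjusted p of 0.000497, limma). Which part of Atf4 the probes cover is not given in the sources used here, and RNA outside the deleted part would still be measured.

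Collagen chains are modified while they are made. In the endoplasmic reticulum, prolyl 4-hydroxylase, a tetramer of alpha subunits (P4ha1, P4ha2 or P4ha3) and the beta subunit P4hb, turns prolines into 4-hydroxyprolines, without which the triple helix melts at body temperature. Lysyl hydroxylases (Plod genes) prepare lysines for sugar attachment and for cross-links, Serpinh1 (HSP47) binds the folded triple helix until it leaves, and outside the cell lysyl oxidases (Lox genes) oxidise lysines of collagen and elastin so that the fibres become cross-linked. Fibroblasts are the main source of fibrillar collagen in the lung.

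Of the 10 genes, 6 fell in LFBD/D, 0 rose and 4 did not pass. To pass, a gene needed a limma p of 0.05 or less after adjustment over all clusters together with a change of more than 1.5-fold. P4ha3 and Loxl3 fell the most (3.62-fold and 2.92-fold), then Plod2 (1.87-fold), Serpinh1 (1.81-fold), Loxl1 (1.75-fold) and P4ha2 (1.61-fold), whereas P4ha1, P4hb, Plod1 and Lox stayed below the fold threshold. Over all named genes the same rule called 2.94% lower and 3.88% higher, and among named genes at or above the level of the median cluster 4.84% lower. The median log2 difference of the 10 genes was −0.75, against 0.02 over all named genes. All 10 differences lay below 0, and for the count of 0 rises no gene had an unadjusted p under 0.05 in that direction in limma or a call in the methods' t-test. That is Student's t-test, which the study names in its general statistics and not for the arrays. In 8 genes every LFBD/D value lay below every LFBwt/wt value, though by only 0.02 in P4ha1 and in P4hb. This was so for 15.1% of all named genes, a share that is not matched for level.

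**Figure D1:**
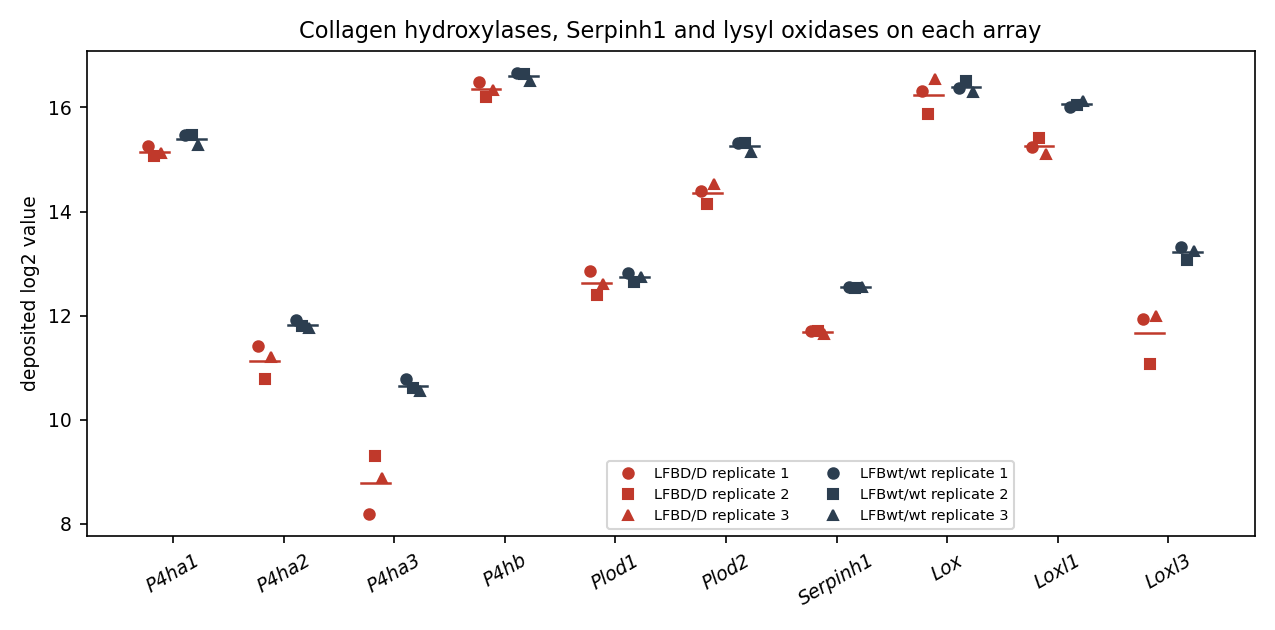
Deposited log2 values (vertical axis) of the 10 genes on each array, with LFBD/D in red at the left of each pair and LFBwt/wt in dark blue at the right. Marker shapes are replicate numbers, which do not pair the groups, and lines are group means of 3 arrays. The groups are apart by more than 1 log2 unit in P4ha3 and Loxl3 and overlap in Plod1 and Lox.

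The same cultures differed in markers of other cells, and these values belong beside every result here. Of 17 leukocyte markers 15 rose and 0 fell, with a median of 5.51-fold, and the log2 of their summed level was 19.15 to 19.41 in LFBD/D and 17.08 to 17.74 in LFBwt/wt. For the count of 0 falls, 2 leukocyte markers had an unadjusted p under 0.05 in that direction in limma and 0 were called by the methods' t-test. Adgre1, the macrophage antigen F4/80, was at 13.56 in LFBD/D and 9.91 in LFBwt/wt. Ptprc, the pan-leukocyte antigen CD45, was at 11.15 in LFBD/D and 8.14 in LFBwt/wt, and Csf1r, a receptor of macrophages, was at 12.75 in LFBD/D and 9.45 in LFBwt/wt. Of 10 mesothelial markers 9 fell and 1 rose, with a summed level of 10.21 to 11.39 in LFBD/D and 15.06 to 15.56 in LFBwt/wt on the log2 scale; Msln fell to 5.10 in LFBD/D, against 7.70 in LFBwt/wt, and Wt1 to 5.55, against 7.66. Both LFBD/D levels were within 1 log2 unit of the median cluster, at 4.895. Of 7 epithelial markers 1 rose, the cadherin gene Cdh1 (2.17-fold), and 6 did not pass, among them Epcam, which was below the median cluster in both groups (4.22 in LFBD/D and 4.14 in LFBwt/wt). Of 7 endothelial markers 3 rose, Emcn by 3.62-fold, Pecam1 by 1.54-fold and Vwf by 1.51-fold. Their LFBwt/wt levels, 5.58, 5.57 and 5.16, were within 1 log2 unit of the median cluster, as was that of Cdh1, 5.25. The log2 summed level of the endothelial list was 9.15 to 9.61 in LFBD/D and 8.29 to 8.61 in LFBwt/wt, and that of the epithelial list 7.88 to 8.05 in LFBD/D and 7.65 to 7.72 in LFBwt/wt. Cdh1, Emcn and Vwf were named after their values had been seen.

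Fibroblast markers were divided, with 7 of 14 lower, 0 higher and 7 that did not pass. Their median log2 difference was −0.81. The log2 of their summed level overlapped between the groups, with 18.7985 to 18.93 in LFBD/D and 18.88 to 18.95 in LFBwt/wt. Acta2 and Vim were the brightest of the list and carry most of that sum. The markers that fell were Col6a1 (4.204-fold), Fbln1 (4.002-fold), Thy1 (3.53-fold), Col6a2 (2.52-fold), Tcf21 (2.44-fold), Mfap5 (2.14-fold) and Pdgfrb (1.87-fold). Among the markers that did not pass, Fap, S100a4, Postn and Lum had log2 differences of −0.71, −0.67, −0.67 and −0.45, and Dcn of 0.18. Vim, the mesenchymal filament protein vimentin, was at 17.204 in LFBD/D and 16.997 in LFBwt/wt, and Acta2, smooth muscle actin, was at 17.68 in both. All of these markers were named after their values had been seen. For the count of 0 rises, 2 fibroblast markers had an unadjusted p under 0.05 in that direction in limma and 0 were called by the methods' t-test. In bulk RNA, fewer cells of a type and less RNA per cell cannot be told apart, and the part of other cells in the differences below was not tested.

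Among the prolyl hydroxylase subunits, 2 of the 3 alpha genes fell and the beta gene did not pass. The catalytic alpha subunits bind the collagen chain and differ in where they are used, P4ha1 being the main form in most cells, and P4hb, protein disulfide isomerase, also serves the folding of many other secreted proteins. The bases upstream of the start of the 3 alpha genes and of Serpinh1 are printed here, as genes of 1 pathway of which some fell and 1 did not pass. They are from RefSeq on GRCm38.p6, 250 bases each before the annotated start, for P4ha1 at chr10:59323046-59323295 (plus strand), P4ha2 at chr11:54100674-54100923 (plus strand), P4ha3 at chr7:100285270-100285519 (plus strand) and Serpinh1 at chr7:99353240-99353489 (minus strand). Capitals mark ACGTG on either strand, 1 form of the core of a hypoxia response element. The form that starts with G was not searched or marked. ACGTG also lies in the E-box CACGTG.
P4ha1: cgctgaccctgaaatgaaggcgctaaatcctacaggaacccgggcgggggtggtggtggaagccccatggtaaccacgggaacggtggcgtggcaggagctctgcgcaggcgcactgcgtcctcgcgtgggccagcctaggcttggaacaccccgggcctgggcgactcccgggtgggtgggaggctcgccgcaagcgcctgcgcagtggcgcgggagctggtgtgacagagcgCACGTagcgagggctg
P4ha2: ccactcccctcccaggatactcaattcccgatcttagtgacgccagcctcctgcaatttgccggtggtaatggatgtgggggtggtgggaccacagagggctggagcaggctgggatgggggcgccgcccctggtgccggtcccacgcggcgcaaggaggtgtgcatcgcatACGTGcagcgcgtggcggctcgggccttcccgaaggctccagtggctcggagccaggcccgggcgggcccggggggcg
P4ha3: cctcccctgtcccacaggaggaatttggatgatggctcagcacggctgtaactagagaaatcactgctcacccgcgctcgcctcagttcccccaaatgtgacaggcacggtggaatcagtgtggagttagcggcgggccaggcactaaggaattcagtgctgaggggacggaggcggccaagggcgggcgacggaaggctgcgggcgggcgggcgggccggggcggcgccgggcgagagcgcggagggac
Serpinh1: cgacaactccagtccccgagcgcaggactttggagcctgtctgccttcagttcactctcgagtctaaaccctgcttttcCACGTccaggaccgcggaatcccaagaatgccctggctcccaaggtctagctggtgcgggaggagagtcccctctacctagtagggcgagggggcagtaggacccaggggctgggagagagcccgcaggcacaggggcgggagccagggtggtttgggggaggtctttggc

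These windows exist in the table for 6 of the 10 genes, the others being P4hb and Plod1. Both motifs were searched on both strands. ACGTG was found in 4 of the 6 windows (P4ha1, P4ha2, Serpinh1 and P4hb), and in 16.6% of all 32851 windows of the same length. TGATGNAA, letters of the composite site that ATF4 binds with partners of the C/EBP family, was found in 0 of the 6, and in 3.45% of all windows. Genes that fell stood on both sides of the ACGTG search, since P4ha3 had no match, and P4ha1, which did not pass, had 1. A match is a description of letters, and the absence of one says only that they are not in this window.

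P4ha3, the alpha subunit described last and with the most restricted expression, had log2 values of 8.18, 9.31 and 8.88 in LFBD/D, against 10.78, 10.61 and 10.55 in LFBwt/wt. The highest LFBD/D value was 1.24 below the lowest LFBwt/wt value, while the LFBD/D arrays themselves were spread over 1.12, with replicate 1 the lowest. The difference was −1.86 (standard error 0.25, adjusted p of 0.00357, limma), which left LFBD/D at 27.6% of the LFBwt/wt level. Of all named genes 0.309% had a lower difference, a share that is not matched for level. In the methods' t-test, which does not pool variances over clusters, it no longer passed, with an adjusted p of 0.0704.

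P4ha2 stood at 11.41, 10.79 and 11.21 in LFBD/D, against 11.92, 11.80 and 11.76 in LFBwt/wt. The groups were apart by 0.345, and replicate 2 was the lowest LFBD/D array. The difference of −0.69 (standard error 0.15, adjusted p of 0.0232, limma) was the closest to the fold threshold of the 6 that passed. The call ended without LFBD/D replicate 2, where the difference was −0.51, without LFBD/D replicate 3 (adjusted p of 0.051), and without LFBwt/wt replicate 1, 2 or 3 (0.0773, 0.0725 and 0.0616). P4ha2 also did not pass in the methods' t-test, with an adjusted p of 0.148.

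P4ha1 had values of 15.25, 15.07 and 15.13 in LFBD/D and of 15.46, 15.47 and 15.27 in LFBwt/wt. The groups did not overlap, but by 0.02 only, and LFBD/D was at 84.1% of the LFBwt/wt level (difference −0.25, 95% confidence interval −0.43 to −0.06, adjusted p of 0.0896, limma). P4hb had 16.49, 16.20 and 16.34 in LFBD/D, against 16.67, 16.64 and 16.51 in LFBwt/wt. Its difference was −0.26 (95% confidence interval −0.46 to −0.06, adjusted p of 0.104, limma). Both intervals leave out a 1.5-fold fall, a size of 0.58 on the log2 scale. With cyclic loess between the arrays the adjusted p of these 2 genes was 0.0239 and 0.0311, with differences of −0.35 and −0.37 that were still under the fold threshold.

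The lysyl hydroxylases split. Plod2 modifies lysines in the telopeptides at the ends of the collagen chain, which gives the stable cross-links of stiff tissue. It was at 14.39, 14.14 and 14.53 in LFBD/D, against 15.32, 15.32 and 15.14 in LFBwt/wt. All LFBD/D arrays were at least 0.61 below all LFBwt/wt arrays, and the difference was −0.91 (standard error 0.11, adjusted p of 0.00198, limma), or 53.4% of the LFBwt/wt level. Plod1, which modifies lysines within the helix, had 12.86, 12.40 and 12.61 in LFBD/D and 12.83, 12.65 and 12.74 in LFBwt/wt. The highest and the lowest of these 6 values were both from LFBD/D. Its difference was −0.12 (95% confidence interval −0.39 to 0.15, adjusted p of 0.627, limma). Plod3, the remaining lysyl hydroxylase, shares its cluster with a microRNA gene and was not used here.

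Serpinh1, the collagen chaperone, gave the tightest values of the 10 genes. LFBD/D had 11.71, 11.70 and 11.64, against 12.55, 12.52 and 12.55 in LFBwt/wt. The spread within a group was at most 0.07 and the gap between the groups 0.81, so that the difference of −0.85 (standard error 0.05) had the lowest adjusted p of the 10, 0.000181 in limma. A dimmer cluster of the same gene showed 9.27, 8.88 and 8.84 in LFBD/D, against 9.91, 10.08 and 9.82 in LFBwt/wt. It also fell, with a difference of −0.94 (standard error 0.13, adjusted p of 0.00357, limma).

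Of the lysyl oxidases, the founding member Lox did not pass, and its relatives Loxl1 and Loxl3 fell. Loxl4, the other relative measured, did not pass, with a 1.28-fold difference under the threshold (adjusted p of 0.023, limma). Loxl2 shares its cluster with a microRNA gene and was not used here. Lox, the main cross-linking oxidase of collagen and elastin, had 16.31, 15.87 and 16.54 in LFBD/D and 16.37, 16.51 and 16.30 in LFBwt/wt. The groups overlapped, the highest value of all being LFBD/D replicate 3 and the lowest LFBD/D replicate 2. Its difference was −0.15 (95% confidence interval −0.53 to 0.22, adjusted p of 0.652, limma), and without LFBD/D replicate 2 it turned to 0.033.

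Loxl1, which in mice is needed to renew elastic fibres, was at 15.24, 15.40 and 15.11 in LFBD/D, against 16.00, 16.05 and 16.12 in LFBwt/wt. The gap between the groups was 0.60 and the difference −0.80 (standard error 0.08, adjusted p of 0.00113, limma). Loxl3, an oxidase that mouse embryos need to form the palate and spine, had 11.94, 11.07 and 12.00 in LFBD/D, against 13.33, 13.07 and 13.25 in LFBwt/wt. The LFBD/D arrays spanned 0.92, with replicate 2 the lowest, yet all 3 were more than 1 log2 unit under LFBwt/wt. The difference was −1.55 (standard error 0.23, adjusted p of 0.00558, limma), or 34.3% of the LFBwt/wt level, and in the methods' t-test the adjusted p was 0.0842.

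**Figure D2:**
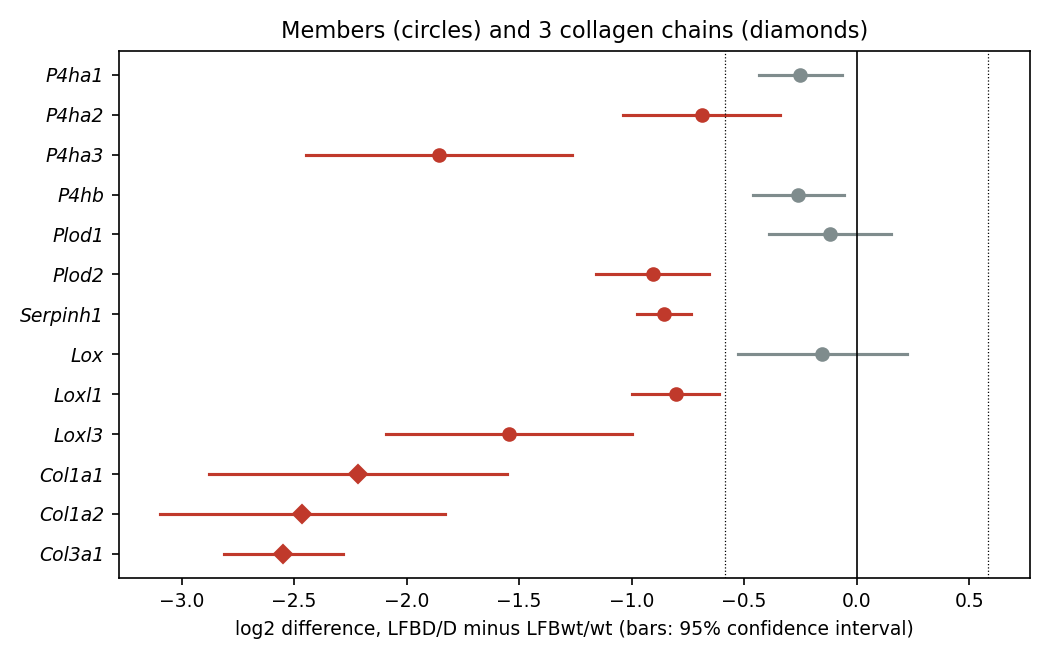
Log2 difference, LFBD/D minus LFBwt/wt, with its 95% confidence interval from limma (bars) for the 10 genes (circles) and 3 collagen chains (diamonds). Red marks genes called lower and grey those that did not pass, and dotted lines mark a 1.5-fold change. P4ha3 and Loxl3 come closest to the collagen chains, and the intervals of Plod1 and Lox include 0.

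The LFBD/D arrays varied more among themselves than the LFBwt/wt arrays in 9 of the 10 genes, P4ha1 being the exception. Replicate 2 was the lowest LFBD/D array in 7 genes. P4ha3 was the reverse, with replicate 2 the highest, as was Loxl1, so the arrays did not shift as 1 block. Without replicate 2 of LFBD/D 5 of the 10 genes were called lower. The count was also 5 without LFBD/D replicate 3 or any single LFBwt/wt array, and 6 without LFBD/D replicate 1.

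Within each family the RNA of the members changed by different amounts on the same arrays. The log2 value of 1 member minus that of another on the same array removes what an array does to both, and how this quantity differed between the groups was tested by an exact two-sided permutation test over the 6 arrays. With 3 arrays a group this test cannot go below a p of 0.1, so the values and their spread carry the comparison. P4ha3 minus P4ha1 averaged −6.36 ± 0.66 in LFBD/D and −4.75 ± 0.09 in LFBwt/wt (SD, 3 arrays each), a shift of −1.61. The shift was −1.17 for P4ha3 against P4ha2, and −0.73 without LFBD/D replicate 1. For P4ha2 against P4ha1 it was −0.44.

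Plod2 minus Plod1 averaged 1.73 ± 0.20 in LFBD/D and 2.52 ± 0.13 in LFBwt/wt, a shift of −0.79. Loxl3 minus Lox averaged −4.57 ± 0.21 in LFBD/D and −3.18 ± 0.23 in LFBwt/wt, a shift of −1.39, and the shift was −0.74 for Loxl3 against Loxl1 and −0.65 for Loxl1 against Lox. The last 2 rested on single arrays, being −0.37 without LFBD/D replicate 2 for Loxl3 against Loxl1 and −0.43 without LFBD/D replicate 3 for Loxl1 against Lox. In every pair the gene that fell more is written first, so the negative sign of the shift follows from that order. Pairs of 1 family also share genes and are not independent results. The groups did not overlap in these 7 pairs, by 0.93 in Loxl3 minus Lox and by as little as 0.01 in Loxl1 minus Lox. Set against the same gene, LFBD/D was lower without overlap in 3.47% of all other named genes for P4ha1, 0.832% for P4ha2, 4.05% for Plod1, 2.61% for Lox and 1.03% for Loxl1. LFBD/D was higher without overlap in 51% for P4ha1, 89.5% for P4ha2, 14.6% for Plod1, 15.3% for Lox and 95.6% for Loxl1. As the order within a pair was set by the data, the lower shares alone understate how common non-overlap is. Each pair had the smallest p the design allows, 0.1 (exact permutation test), which is 0.1 after Benjamini-Hochberg adjustment over the 7 pairs. Only the shifts are comparable here, since levels of different probe sets are not.

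**Figure D3:**
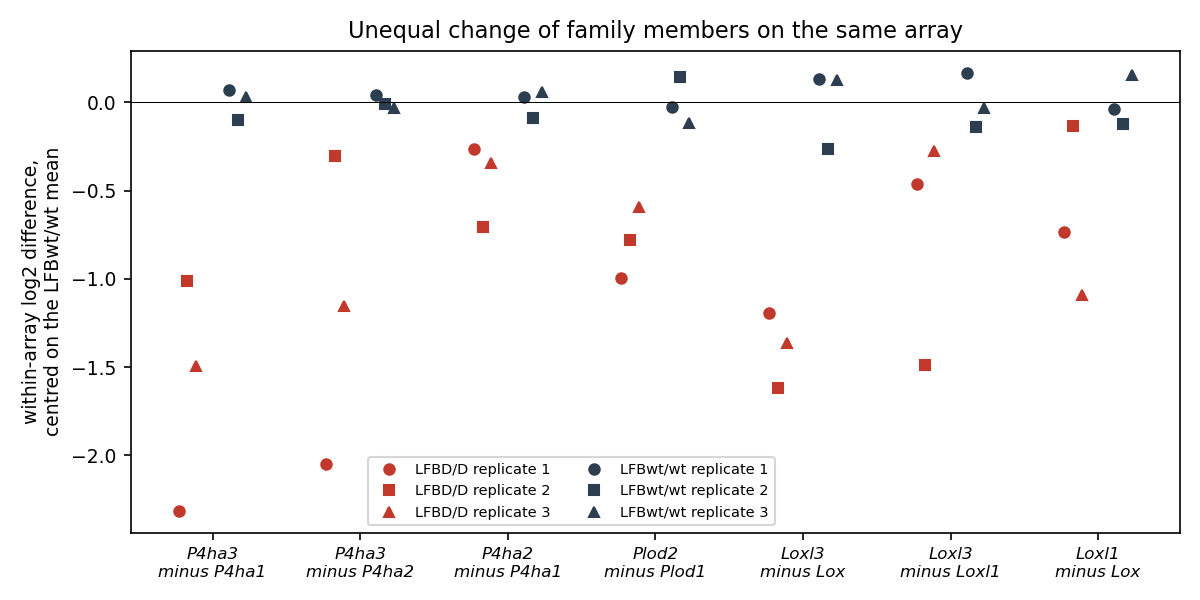
Within-array log2 difference between family members, centred on the LFBwt/wt mean (vertical axis), for 7 pairs. LFBD/D arrays are red at the left of each pair and LFBwt/wt arrays dark blue at the right, with marker shapes for replicates. All LFBD/D points lie below all LFBwt/wt points of their pair, by the least in Loxl1 minus Lox.

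Of 8 substrate genes of these enzymes 6 fell, 0 rose and 2 did not pass. For the count of 0 rises, 0 had an unadjusted p under 0.05 in that direction in limma or a call in the methods' t-test. Col1a1, a chain of type I collagen, had 14.86, 13.98 and 15.24 in LFBD/D, against 16.84, 16.86 and 17.03 in LFBwt/wt (difference −2.22, standard error 0.28). The difference was −2.46 for Col1a2 and −2.55 for Col3a1. Among chains of the minor fibrillar collagens it was −1.46 for Col5a1, −1.16 for Col5a2 and −1.07 for Col11a1, which fell, and −0.15 for Col5a3, which did not pass. P4ha3 and Loxl3, at −1.86 and −1.55, thus lay between the major and the minor chains, and chains and enzymes were not tested against each other. The minor chains were named after their values had been seen. Eln, the elastin gene, was at 6.60 in LFBD/D and 7.16 in LFBwt/wt, with a difference of −0.56 and an adjusted p of 0.00563 in limma, a 1.47-fold change under the threshold.

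Each gene was also set against Col1a1 on the same array. By this measure 99.5% of all other named genes were higher on every LFBD/D array than on every LFBwt/wt array, and so were 9 of the 10 genes, so the count says nothing particular about them. The shift was 2.10 for Plod1, 2.07 for Lox, 1.97 for P4ha1, 1.96 for P4hb, 1.53 for P4ha2, 1.41 for Loxl1, 1.36 for Serpinh1, 1.31 for Plod2 and 0.67 for Loxl3. Each had the smallest p the design allows, 0.1 (exact permutation test), or 0.111 adjusted over the 10. P4ha3 was the exception, with a shift of 0.36, overlapping groups and a p of 0.9 (exact permutation test). Without LFBD/D replicate 2 its shift was −0.25. P4ha3 was thus 3.62-fold lower and Col1a1 4.65-fold lower in LFBD/D, a difference within the spread between arrays.

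The other genes of collagen maturation were mixed as well. Of 24 measured genes of modification, cross-linking, export and trimming, 8 fell, 0 rose and 16 did not pass. Their median log2 difference was −0.26. For the count of 0 rises, 1 gene had an unadjusted p under 0.05 in that direction in limma and 0 were called by the methods' t-test. Fkbp10 and Adamts2 were not analysed here, nor were Plod3 and Loxl2, which share clusters with microRNA genes.

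Among 10 other modification genes 3 fell. P3h1, a prolyl 3-hydroxylase, had 10.09, 9.67 and 9.85 in LFBD/D, against 10.93, 10.91 and 11.08 in LFBwt/wt. All LFBD/D values lay below all LFBwt/wt values, with a difference of −1.10 (standard error 0.11). P3h3 and P3h4, whose proteins form a complex with the Plod1 product in mice, fell by 0.91 and 0.95, while Plod1 itself did not pass. Crtap and Ppib, the partners of P3h1 in its complex, had differences of −0.24 and 0.04. The adjusted p was 0.0335 for Crtap, whose difference was under the fold threshold, and 0.786 for Ppib (limma). These 4 genes were named after their values had been seen. Loxl4, the other oxidase measured, was at 7.66, 7.55 and 7.80 in LFBD/D, against 8.09, 7.98 and 8.01 in LFBwt/wt, a 1.28-fold difference that is under the threshold (adjusted p of 0.023, limma).

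Of 13 genes of procollagen export and trimming 5 fell. Adamts3, a protease that removes the amino-terminal propeptide, had 4.91, 5.24 and 5.10 in LFBD/D, against 6.94, 6.84 and 7.31 in LFBwt/wt. It fell, with an adjusted p of 0.000307 in limma. Its LFBD/D values lay at the level of the median cluster, 4.895, so no fold is given. Pcolce, which enhances removal of the carboxy-terminal propeptide, had 10.97, 10.77 and 11.003 in LFBD/D, against 12.05, 11.92 and 12.16 in LFBwt/wt. Bmp1, the protease it enhances, had 13.13, 12.80 and 12.91 in LFBD/D, against 13.98, 13.95 and 14.23 in LFBwt/wt. Both fell by about as much, with differences of −1.13 (standard error 0.09) and −1.11 (standard error 0.11). Sec24d and Sec23a, coat proteins of the vesicles that leave the endoplasmic reticulum, fell by 1.06 and 0.70, and were named after their values had been seen.

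**Figure D4:**
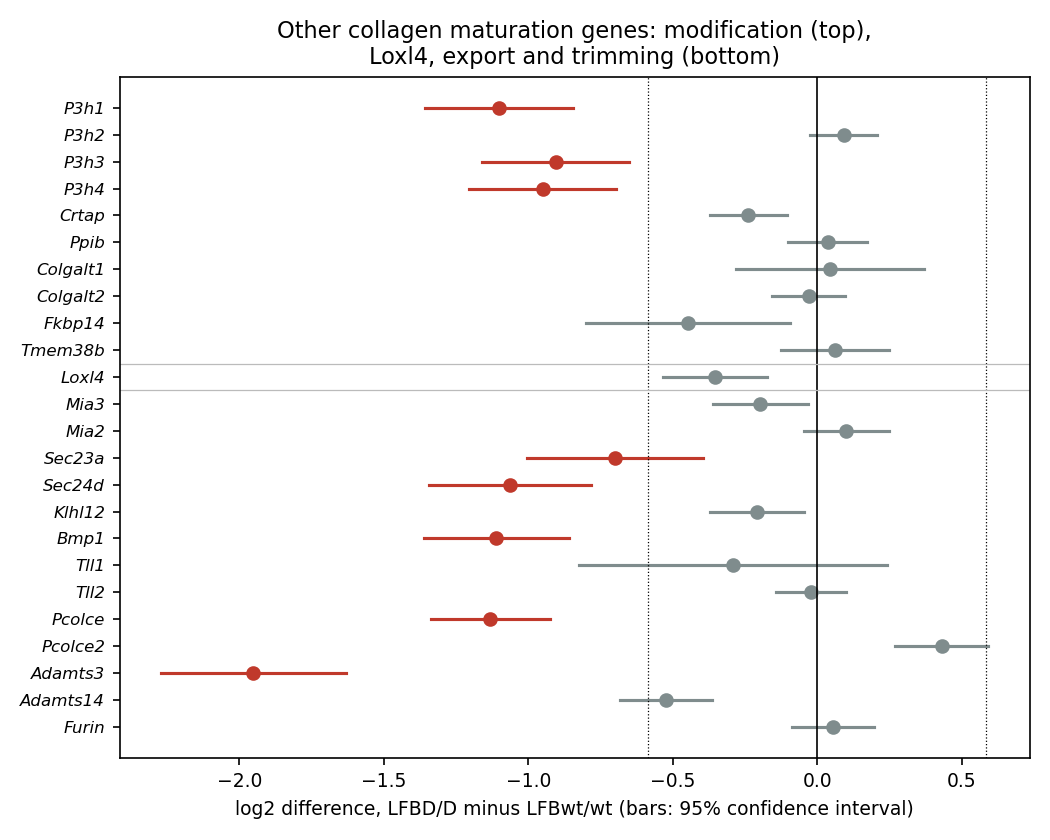
Log2 difference, LFBD/D minus LFBwt/wt, with its 95% confidence interval from limma, for 24 other genes of collagen maturation, grouped into modification, the oxidase Loxl4, and export with trimming. Red marks the 8 genes called lower and grey those that did not pass, and dotted lines mark a 1.5-fold change. The 8 red points lie beyond the line on the left, that of Adamts3 with an LFBD/D level at the median cluster, and no point lies beyond the line on the right.

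P4ha1, P4ha2, Plod2 and Lox are also known targets of the hypoxia-inducible factor HIF. Of 15 other genes of that response and of the oxygen-sensing hydroxylases, 0 fell and 0 rose in limma, against 2.94% and 3.88% of all named genes. At an unadjusted p under 0.05 in limma 4 were lower and 1 higher, and the methods' t-test called 0 and 0. Vegfa, Ndrg1 and Egln2 were lower by less than the fold threshold, with adjusted p of 0.0289, 0.0262 and 0.0463 (limma). Egln1 was higher by 0.36 (adjusted p of 0.143, limma). They were named after their values had been seen. The median log2 difference was −0.0038. The log2 summed level was 18.982 to 19.041 in LFBD/D and 18.792 to 18.975 in LFBwt/wt. Whether the hypoxia response differed was not tested.

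Several of the 10 genes were among the brightest of the array. P4hb, Lox, Loxl1 and P4ha1 had higher mean levels than 98.6% or more of named genes, and P4hb, Lox and Loxl1 had values above 16. The deposited values reached 18.88. Among the 515 named genes at a mean log2 level of 15 or more, 4.66% were called lower, and the 5th to 95th percentile of their differences was −0.57 to 0.49. Loxl1 was outside that range, and P4ha1, P4hb and Lox were inside. Between a level of 11 and 13 the range was −0.78 to 0.82, with Loxl3 and Serpinh1 outside and P4ha2 and Plod1 inside. The median difference was 0.13 at a level of 15 or more. Whether brightness narrows the differences of single genes was not tested.

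**Figure D5:**
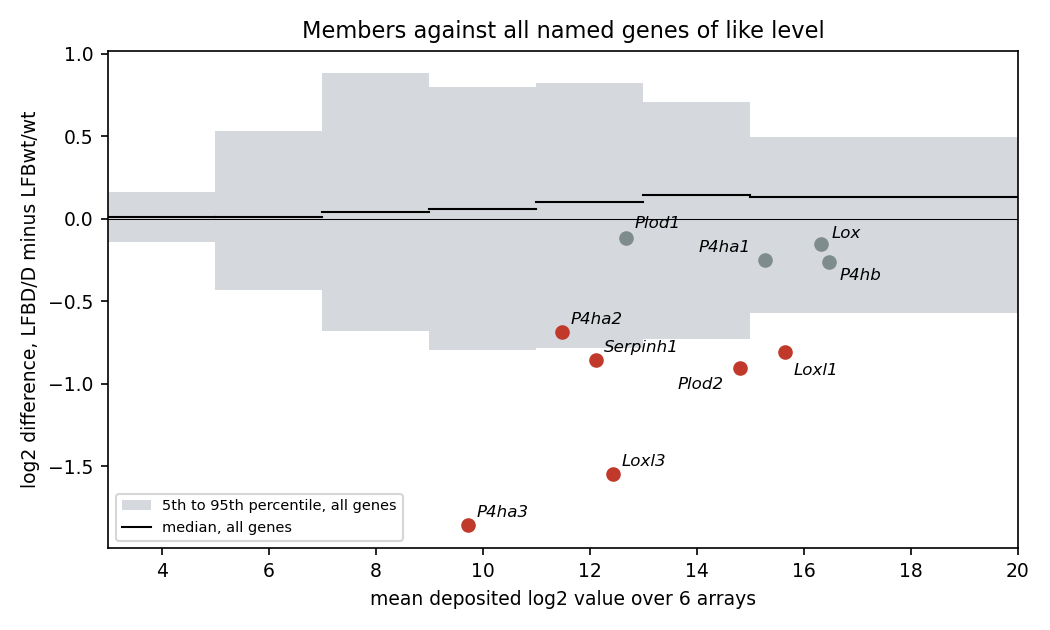
Log2 difference, LFBD/D minus LFBwt/wt (vertical axis), against the mean deposited log2 value over 6 arrays (horizontal axis). Grey bands run from the 5th to the 95th percentile of all named genes in a range of levels, black lines are their medians, red points are genes called lower and grey points those that did not pass. P4ha3, Loxl3, Plod2, Loxl1 and Serpinh1 lie below the band of their level.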

How the data were processed

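Each sample's RNA was hybridised to 1 Clariom D mouse array after amplification and biotin labelling. The deposited values are log2 values that the authors made by robust multi-array averaging (RMA) in the Transcriptome Analysis Console at its default settings. Its quantile normalisation gives all arrays 1 distribution, which hides any difference in RNA content per cell. Array medians were 4.87 to 4.91, and precision is limited by having 6 arrays. Arrays correlated at 0.997 to 0.998 within groups and 0.988 to 0.993 between groups.

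Groups and replicate numbers came from sample titles. Of 65956 clusters, 31290 named 1 gene, 1524 several and 33142 none in the platform annotation, updated through RefSeq (GRCm38.p6). Clusters with several genes named none. The model (limma 3.58.1 in R 4.3.3, lmFit then eBayes) covered all clusters, held genotype alone and used Benjamini-Hochberg adjustment over all clusters. The array methods name no test. The thresholds are those of the study. Replicate numbers did not pair the arrays. The procedure was also run on simulated data drawn from the variances that limma fitted, equal in both groups. That run checks the code and not how well the model suits these arrays.

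Named were the 10 genes, Atf4, Plod3, Loxl2, Loxl4, 4 substrates, 7 defining markers of other cells, and up to 4 called genes with the largest difference of the other pathway genes and of the hypoxia list. The genes, lists and rules were chosen with earlier results of these data known. Alternatives were other tests, scalings, filters, a replicate block and leaving out each array. Protein sequences were not used here.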

Additional observations from a re-analysis of the deposited data

How the results depend on the processing

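Each of the 10 differences was recomputed under 15 alternatives. Of these 150 values 137 kept direction and side of the threshold, 12 no longer passed and 1 turned (Lox, 0.033 without LFBD/D replicate 2, the highest of a range from −0.30 on leaving out single arrays). Serpinh1, P4ha1, P4hb and Plod1 kept their side in all 15. P4ha2 accounted for 7 of the 12, and is the least stable call. The count of the 10 genes called lower was 3 in the methods' t-test (Plod2, Serpinh1 and Loxl1) and 2 in limma against a fold change of 1.5 (P4ha3 and Serpinh1). It was 5 to 6 on leaving out single arrays, where 0 of the 10 rose. The cause of these changes was not tested.

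Of the other pathway genes, 2 fell in the test against a fold change of 1.5, 7 to 8 without single arrays, and 1 rose, Pcolce2, without a fold threshold. Calls over all clusters numbered 3199, 1647 in the methods' t-test, 887 against a fold change of 1.5, 8542 without a fold threshold and 2663 to 3375 without single arrays. With the replicate number as a block 3060 were called and the same count of 6 of the 10 genes. The numbers share no design and same-numbered arrays did not deviate together (correlations of −0.04, −0.01 and −0.22), and none of the calls on the 10 genes changed with the block. Cyclic loess moved the median difference of the 10 genes to −0.83 and median centring to −0.73. Of the pairs within families, P4ha3 minus P4ha2 ran from −1.60 to −0.73, Loxl3 minus Loxl1 from −0.98 to −0.37 and Loxl1 minus Lox from −0.91 to −0.43 without single arrays. Against Col1a1, P4ha3 turned to −0.25 without LFBD/D replicate 2 and was at 0.74 without LFBD/D replicate 1.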
